A study of Homo sapiens with 12 samples.

Results

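Trifluridine given for 8 h was compared with vehicle in the established human melanoma line WM35 on 5 of the 12 arrays of the study. The 5 were chosen by their titles. Of these, 3 arrays were labelled TFT 8 h (trifluridine, also called trifluorothymidine, TFT) and 2 were labelled control, which the protocols describe as the solvent DMSO. The titles give no time for the control arrays. Cells of every group were grown in RPMI 1640 with fetal bovine serum and antibiotics, and the drug was used at its 75% inhibitory concentration, as determined after 72 h of treatment. The other 7 arrays held cells given TFT for 24 h or lactimidomycin (LTM), which blocks the movement of ribosomes along mRNA, for 8 h or 24 h. No array held untreated cells, and the results describe 1 cell line in culture. The design text says that drug signatures were wanted for comparison with outcome in melanoma patients.

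Trifluridine is a thymidine analog. Thymidine kinase (TK1) phosphorylates it, and the product is built into DNA in place of thymidine, while its monophosphate inhibits thymidylate synthase (TYMS), the enzyme that makes thymidylate for DNA synthesis. Thymidine phosphorylase (TYMP) breaks it down. Cells with damaged or unfinished DNA can halt in S phase or before mitosis, and mitotic genes such as cyclin B and polo-like kinase are transcribed mainly in G2 and M phase, under promoters that often carry a CCAAT box and a short element called CHR (cell cycle genes homology region).

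On the 5 arrays 19668 to 20249 of 47230 probes were detected above the negative controls, and 12131 named genes entered the tests, each represented by 1 probe. Levels below are log2 intensities after background correction and quantile normalization, so a difference of 1 is a 2-fold change. The array labelled TFT 8 h replicate 3 stood apart. After each gene was centred over the 12 arrays, TFT 8 h replicates 1 and 2 correlated with each other at r = 0.764 over genes. Replicate 3 correlated with them at -0.526 and -0.520, and with LTM 8 h replicates 2 and 3 at 0.797 and 0.768. These coefficients are across genes, which are not independent replicates, and carry no test. The arrays labelled TFT 24 h replicate 1 and LTM 8 h replicate 1 also went against their labels. TFT 24 h replicate 1 correlated with TFT 8 h replicates 1 and 2 at 0.744 and 0.738. Counts are therefore given as labelled, from 1 fit of all 12 arrays, and again from a fit of 9 arrays without these 3, with only replicates 1 and 2 on the TFT 8 h side. Values of single genes come from the fit of 9 arrays, and the value as labelled is added for some of them. The choice of those 9 arrays was made from the same data, and the p-values do not allow for it. The labels do not state whether each replicate was its own culture, and the spread that the p-values measure is that between these arrays, which may be technical. All arrays lay on 1 BeadChip, each at its own position, and position and group cannot be told apart.

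The label melanoma was checked against markers. Of the melanocyte genes MITF, SOX10, EDNRB and ERBB3 were detected on all 5 arrays, PAX3 on 4 and PMEL on 2. TYR, TYRP1, MLANA, GPR143 and S100B, which serve pigment or mark differentiated melanocytes, were detected on 0 of the 5 arrays. Of 26 lineage genes with a probe, 11 were detected on all 5 arrays. For other cell types the numbers were 2 of 11 fibroblast genes (FAP and LUM), 2 of 9 epithelial genes (KRT8 and KRT18), 2 of 9 leukocyte genes (CD14 and CD68) and 1 of 7 endothelial genes (ENG). The summed signal of the leukocyte genes was 469.7 and 496.8 on the controls, 408 and 413.5 on TFT 8 h replicates 1 and 2 and 309.9 on replicate 3. That of the endothelial genes was 405 and 467.8 on the controls, 565.7 and 626.3 on replicates 1 and 2 and 282.1 on replicate 3. Their part in the results was not tested.

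As labelled, with 3 TFT 8 h arrays, 0 of 12131 genes (0%) passed an adjusted p under 0.05 in limma with Benjamini-Hochberg adjustment. The smallest adjusted p was 0.141, and 1123 genes had an unadjusted p under 0.05. Without the 3 arrays, TFT 8 h replicates 1 and 2 differed from the controls in 416 genes (3.43%), of which 226 rose (1.86%) and 190 fell (1.57%). Of these, 26 rose and 17 fell by at least 1 on the log2 scale. The median SE of a log2 fold change was 0.204 in the fit of 12 arrays and 0.142 in the fit of 9. Both TFT 8 h arrays lay outside the range of the 2 controls, on the same side, for all 416 genes. That separation is common in so few arrays, since 29.2% of all genes had both TFT 8 h arrays above both controls and 29.1% had both below. With replicate 3 included, 17.1% of all genes had all 3 TFT 8 h arrays above both controls and 18.5% had all 3 below. A gene with all 3 on 1 side is thus also common. In the rest of the text a gene is said to rise or fall if it passed in the fit of 9 arrays.

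The array labelled replicate 3 lay above both controls for 169 of the 226 genes that rose and below both for 48. For the 190 genes that fell, it lay below both controls for 153 and above both for 31. Of all genes, 3537 had replicates 1 and 2 above both controls, and 2071 had replicate 3 above as well. Below both controls these numbers were 3530 and 2245. The same 2 controls enter both sides of these counts, so a shared side is no independent support. The correlations of replicate 3 given above were highest with LTM 8 h replicates 2 and 3. Where it lies with replicates 1 and 2, it is described as labelled and is not taken as a further TFT replicate. The sign of the log2 fold change was opposite in the 2 fits for 7 of the 416 genes (CCNE1, H2AC6, HSPA1B, MLPH, TIPARP, TXNIP and VSNL1), of which MLPH, TIPARP, TXNIP and VSNL1 are named here after their values were seen. The count of 416 rested on all 4 arrays compared. It was 22 without control replicate 1, 19 without control replicate 2, 29 without TFT 8 h replicate 1 and 48 without TFT 8 h replicate 2, where the lone array of a group is assumed to vary like the other groups. It was 0 when the other 2 arrays that went against their labels stayed in the fit. Called in all 4 of the fits that left out 1 array were 16 genes, 11 that rose (ANGPTL4, ANKRD1, CPA4, EPHB1, GLIPR1, LIF, LIMA1, MGLL, MT1X, PLXNA2 and TNS1) and 5 that fell (KIF20A, MXD3, PLK1, TEF and TYMSOS). TNS1 was named here after its values were seen. The balance of rises and falls depended on the scaling. Under median scaling in place of quantile normalization, the median of all genes moved to -0.16 and 159 genes were called higher and 1397 lower, so that 10.2% of calls were higher, against 54.3% under quantile normalization. Counts of list members under median scaling, given below, stand beside these 159 rises and 1397 falls among 12131 genes.

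**Figure D1:**
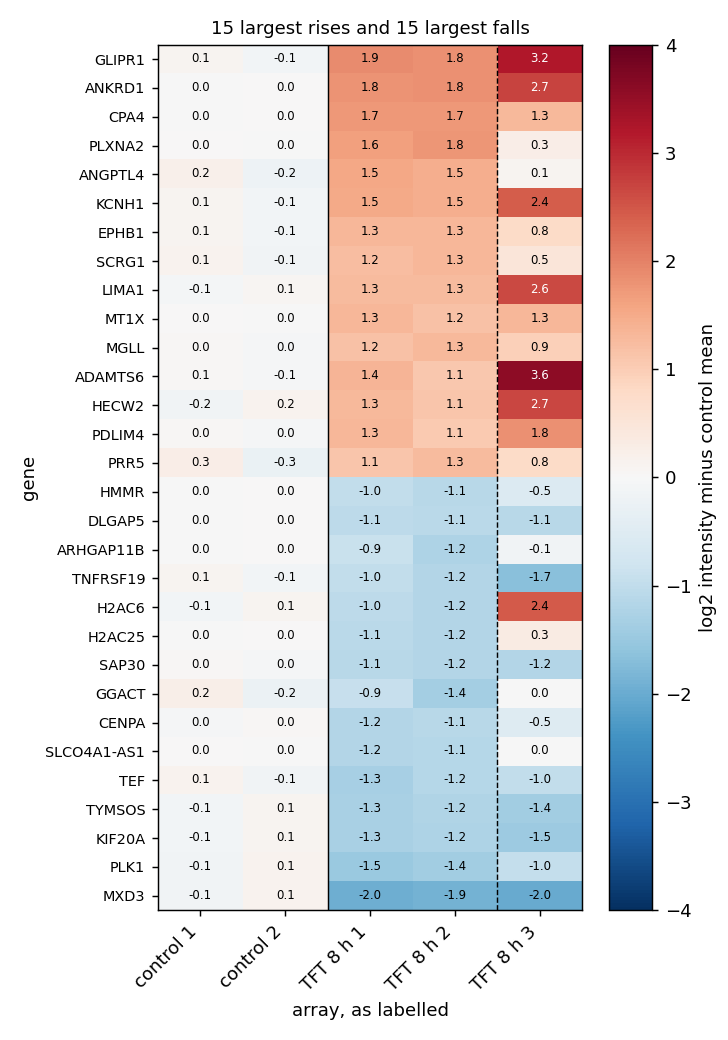
Log2 intensity minus the mean of the 2 control arrays for the 15 genes with the largest rises and the 15 with the largest falls (rows), on each control and TFT 8 h array (columns); the number in a cell is the value drawn. Replicates 1 and 2 lie on the same side of the controls in every row and are furthest apart for GGACT (5.87 and 5.43) and ARHGAP11B (5.77 and 5.41), while replicate 3, right of the dashed line, is above them for ADAMTS6 and LIMA1, near the controls for ANGPTL4 and SLCO4A1-AS1, and opposite in sign for H2AC6.

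Many genes of mitosis fell. Over the 4 mitotic lists (entry kinases and cyclins, kinesins and spindle, kinetochore and chromosome structure, anaphase-promoting complex and exit), 28 of 94 measured members fell (29.8%), 0 rose and 66 did not pass. This was set beside 1.57% of all genes that fell. The median log2 fold change was -0.42 over the 94 members and 0.00 over all genes, and it was -0.45 for the array labelled replicate 3 alone. As labelled, no member passed. Fallen members came to 10 of 20 entry kinases and cyclins (median -0.52), 12 of 27 kinesins and spindle genes (-0.55), 5 of 29 kinetochore and chromosome genes (-0.34) and 1 of 18 anaphase and exit genes (-0.25). All 4 medians were negative under each scaling tried. Under median scaling the median of all genes was -0.16, and 1397 of all 12131 genes fell. The number of mitotic genes that fell was 60 under median scaling, and 2 to 3 when 1 of the 4 arrays was left out, whichever it was. In bulk RNA, fewer cells in G2 and M phase and less of these transcripts per cell cannot be told apart.

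PLK1 (probe ILMN_1736176), polo-like kinase 1, which drives mitotic entry and spindle assembly, was at 8.43 and 8.70 on the controls, at 7.09 and 7.16 on TFT 8 h replicates 1 and 2, and at 7.60 on the array labelled replicate 3. All 3 TFT 8 h arrays were below both controls, and replicates 1 and 2 lay close together. The log2 fold change was -1.44 (SE 0.129, limma adjusted p = 0.00189), a 2.71-fold lower level, and as labelled it was -1.28 (SE 0.306, adjusted p = 0.363).

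KIF20A, a kinesin of the central spindle and cytokinesis, was at 10.98 and 11.18 on the controls, 9.77 and 9.84 on replicates 1 and 2, and 9.62 on replicate 3. The groups did not overlap, with or without replicate 3, and the log2 fold change was -1.28 (SE 0.127, adjusted p = 0.00211; as labelled adjusted p = 0.371). CENPA, the histone H3 variant that marks centromeres, was at 10.50 and 10.57 on the controls, 9.35 and 9.41 on replicates 1 and 2, and 10.02 on replicate 3. Replicate 3 stood between the other TFT 8 h arrays and the controls, and the log2 fold change was -1.15 (SE 0.142, adjusted p = 0.00606; as labelled -0.94, adjusted p = 0.371). DLGAP5, a microtubule-binding protein of the spindle, was at 9.90 and 9.91 on the controls and at 8.84, 8.83 and 8.78 on TFT 8 h replicates 1, 2 and 3. All 3 treated arrays were alike here (log2 fold change -1.07, SE 0.154, adjusted p = 0.0113), and LTM 8 h replicates 2 and 3 were at 8.87 and 8.80. HMMR, a hyaluronan receptor that also binds the spindle, was at 10.28 and 10.31 on the controls, 9.32 and 9.20 on replicates 1 and 2, and 9.75 on replicate 3. It fell by 1.04 on the log2 scale (SE 0.142, adjusted p = 0.00839), with all treated arrays below the controls.

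The promoters of these 5 genes are shown because the mitotic genes moved together and because the elements known from such promoters can be read in them. Each is the RefSeq sequence (GRCh38.p14) from 250 bases before to 50 after the start of the gene, read 5′ to 3′ on the gene's strand. Capitals mark the CHR letters (TTTGAA, or TTCAAA on the other strand) and the CCAAT box letters (CCAAT, or ATTGG on the other strand). PLK1 lies at chr16:23678639-23678938 (plus strand), KIF20A at chr5:138178862-138179161 (plus), CENPA at chr2:26785806-26786105 (plus), DLGAP5 at chr14:55191536-55191835 (minus) and HMMR at chr5:163460382-163460681 (plus).
PLK1: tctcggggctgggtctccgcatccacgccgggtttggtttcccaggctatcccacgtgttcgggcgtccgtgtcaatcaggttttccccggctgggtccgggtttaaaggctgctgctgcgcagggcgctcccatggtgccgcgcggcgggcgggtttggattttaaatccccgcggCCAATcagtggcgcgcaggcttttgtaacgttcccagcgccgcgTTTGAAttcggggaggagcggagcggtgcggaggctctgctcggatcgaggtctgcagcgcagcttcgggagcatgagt
KIF20A: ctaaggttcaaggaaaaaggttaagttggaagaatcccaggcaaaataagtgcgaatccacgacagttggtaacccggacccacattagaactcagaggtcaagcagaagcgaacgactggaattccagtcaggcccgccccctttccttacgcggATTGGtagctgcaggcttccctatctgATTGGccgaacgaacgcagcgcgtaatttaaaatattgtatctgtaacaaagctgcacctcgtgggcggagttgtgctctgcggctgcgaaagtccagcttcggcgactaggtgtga
CENPA: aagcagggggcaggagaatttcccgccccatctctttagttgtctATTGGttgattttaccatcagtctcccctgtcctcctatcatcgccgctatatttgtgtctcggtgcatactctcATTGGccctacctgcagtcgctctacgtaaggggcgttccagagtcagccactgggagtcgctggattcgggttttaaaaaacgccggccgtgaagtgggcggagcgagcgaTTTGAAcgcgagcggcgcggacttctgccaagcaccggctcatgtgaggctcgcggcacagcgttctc
DLGAP5: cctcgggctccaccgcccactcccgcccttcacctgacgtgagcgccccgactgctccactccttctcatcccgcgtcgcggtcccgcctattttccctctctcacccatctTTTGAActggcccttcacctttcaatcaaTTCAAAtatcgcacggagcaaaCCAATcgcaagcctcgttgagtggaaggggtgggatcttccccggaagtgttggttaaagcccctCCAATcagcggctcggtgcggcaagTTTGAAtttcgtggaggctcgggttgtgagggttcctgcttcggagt
HMMR: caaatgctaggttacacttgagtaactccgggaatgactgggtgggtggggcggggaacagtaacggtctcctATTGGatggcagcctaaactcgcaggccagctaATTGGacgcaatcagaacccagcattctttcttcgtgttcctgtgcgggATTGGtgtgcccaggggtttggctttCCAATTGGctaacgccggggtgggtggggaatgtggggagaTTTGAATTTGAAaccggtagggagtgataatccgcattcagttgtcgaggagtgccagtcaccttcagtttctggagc
Counted from the start of the gene, the CHR letters of PLK1 begin at position -29 and its CCAAT box at -73, and the CHR letters of CENPA begin at -18. HMMR holds 2 adjoining CHR matches and 5 CCAAT boxes, 2 of which overlap, and DLGAP5 holds 3 CHR matches. KIF20A holds 0 CHR matches and 2 CCAAT boxes.

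A promoter entry was found for 25 of the 28 fallen mitotic genes. The CHR letters were in 15 of these 25 (60%), in 31 of 57 mitotic genes that did not pass (54.4%), in 10.4% of all tested genes with an entry and in 15.4% of all 27305 promoters of the table. The CCAAT box was in 18 of the 25 (72%) and in 57.9% of the mitotic genes that did not pass. It was in 37.1% of all tested genes with an entry and in 35.7% of all promoters. Both were in 44% of the fallen mitotic genes, in 35.1% of the mitotic genes that did not pass, in 4.38% of all tested genes with an entry and in 6.08% of all promoters. Among all genes that rose, 8 of 172 promoters (4.65%) held the CHR letters, and among all that fell 46 of 155 (29.7%). A match describes the letters in this window and is not a site in use.

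Other entry regulators fell with PLK1. AURKA, a centrosomal kinase that activates PLK1, was at 11.30 and 11.33 on the controls and at 10.45, 10.46 and 10.20 on TFT 8 h replicates 1, 2 and 3. The treated arrays lay below both controls (log2 fold change -0.86, SE 0.109, adjusted p = 0.00671). CCNB1, cyclin B1, the partner of CDK1 in mitotic entry, fell from 9.09 and 9.02 to 8.28 and 8.27, and was lower still at 7.69 on replicate 3 (-0.78, SE 0.115, adjusted p = 0.0122). CDC25C, the phosphatase that activates CDK1 with cyclin B, fell by 0.95 (SE 0.123, adjusted p = 0.00695), and its other 2 probes fell too. The remaining fallen kinases and cyclins were NEK2, a kinase of centrosome separation, the cyclin gene CCNB2, the spindle checkpoint kinases TTK and BUB1, the PLK1 activator BORA, and LIN54, a DNA-binding subunit of the DREAM complex. Their log2 fold changes ranged from -1.03 for NEK2 to -0.58 for LIN54. CDK1 itself had -0.43 (SE 0.125, adjusted p = 0.0893), with 10.42 and 10.56 on the controls and 10.10 and 10.03 on replicates 1 and 2. FOXM1, a transcription factor of G2 and M phase genes, had 0.08 (SE 0.130, adjusted p = 0.764).

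Fallen motor and spindle genes besides those above included KIF18A, a kinesin that dampens chromosome movements, KIF2C, a microtubule-depolymerizing kinesin, KIF14, KIF22, PRC1, a bundler of the central spindle, SPAG5, TACC3, PSRC1 and FAM83D, between -0.98 for KIF18A and -0.54 for TACC3. KIF18A was the only one of the 28 fallen mitotic genes that was not below both controls on the array labelled replicate 3, where it was at 7.33 against 7.18 and 7.21 (as labelled -0.61, adjusted p = 0.579). Kinetochore genes that fell were CENPA, the outer kinetochore subunits NDC80 (-0.78, SE 0.145, adjusted p = 0.0238) and NUF2 (-0.66, SE 0.137, adjusted p = 0.0324), SKA2, which couples kinetochores to microtubules (-0.60, SE 0.119, adjusted p = 0.0289), and INCENP, the scaffold of the Aurora B complex (-0.55, SE 0.116, adjusted p = 0.0358). A second SKA2 probe had 0.10 and did not pass. Of the exit genes, ESPL1, the protease separase, fell by 0.49 (SE 0.111, adjusted p = 0.0439).

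**Figure D2:**
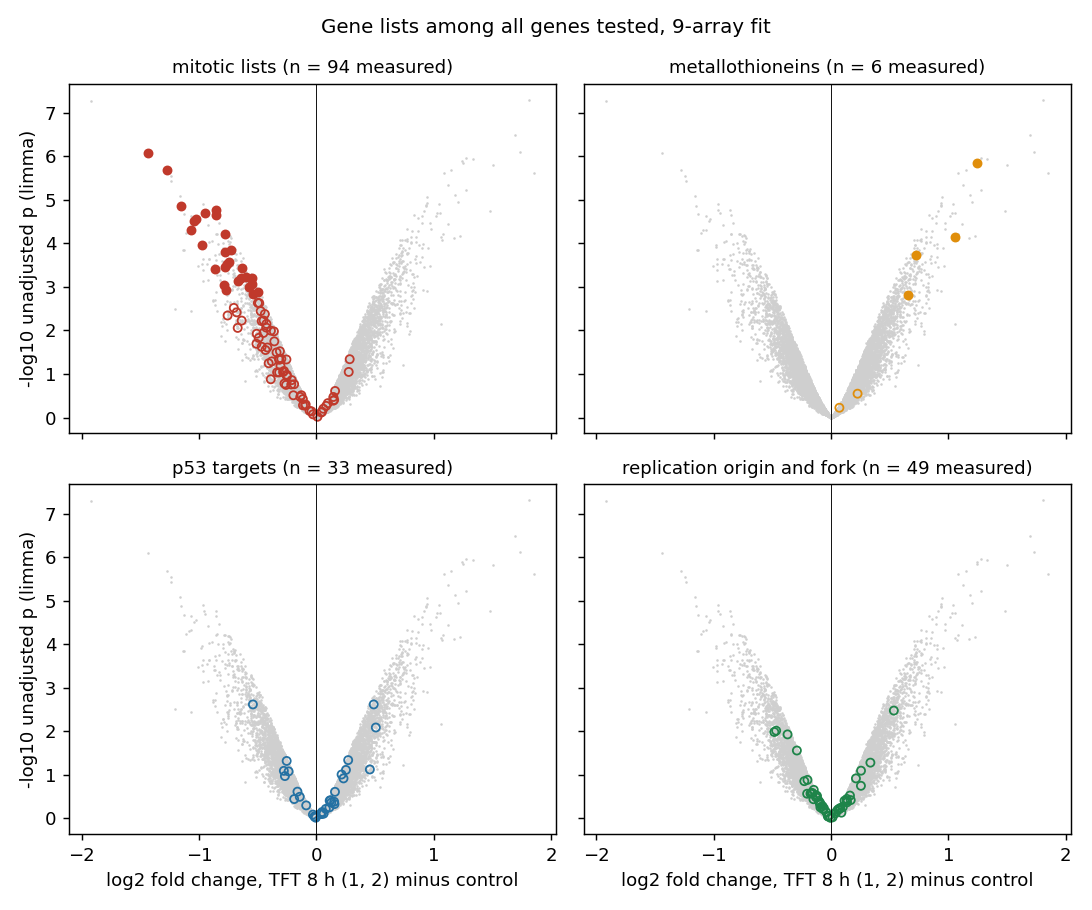
Log2 fold change of TFT 8 h replicates 1 and 2 minus control (horizontal) against -log10 of the unadjusted limma p (vertical, fit of 9 arrays) for all 12131 genes in grey, with 1 list coloured in each panel; filled points passed an adjusted p of 0.05. Of the 94 mitotic genes 28 are filled, all left of 0, and of the 6 metallothioneins 4 are filled, right of 0, while no p53 target and no replication gene is filled.

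Genes of the step from G1 into S phase did not follow the mitotic genes. CDC25A, the phosphatase that activates CDK2, was at 9.76 and 9.78 on the controls, 10.46 and 10.54 on TFT 8 h replicates 1 and 2, and 10.21 on replicate 3. All treated arrays were above both controls, and CDC25A rose by 0.73 (SE 0.112, adjusted p = 0.0137; as labelled 0.63, adjusted p = 0.371). Its other probe had 0.46 and did not pass. CCNE1, cyclin E1, the partner of CDK2, was at 8.08 and 8.14 on the controls, at 8.72 and 8.68 on replicates 1 and 2, and at 6.68 on replicate 3. The array labelled replicate 3 lay on the other side of the controls, so that the log2 fold change was 0.59 (SE 0.119, adjusted p = 0.0309) with replicates 1 and 2 and -0.08 (SE 0.552, adjusted p = 0.968) as labelled. These were the 2 genes that rose among 26 measured G1/S cyclins and E2F factors, beside 1.86% of all genes, and 0 fell (median 0.10, but -0.10 under median scaling). Of 49 measured genes of the replication origin and fork, 0 rose and 0 fell, with a median of -0.03. Of all genes 3.43% passed. Under median scaling 5 of the 49 fell (median -0.25), beside 1397 of all 12131 genes. With normexp on the signals alone 3 fell, beside 417 of all genes. The widest 95% interval of a member extended 0.577 to either side of its value. PCNA, the sliding clamp, was at 10.35 and 10.27 on the controls and at 10.20 and 10.24 on replicates 1 and 2 (-0.09, SE 0.150, adjusted p = 0.779). The licensing factor CDC6 had 0.54 (SE 0.138, adjusted p = 0.0650), and topoisomerase TOP2A -0.48 (SE 0.152, adjusted p = 0.109).

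**Figure D3:**
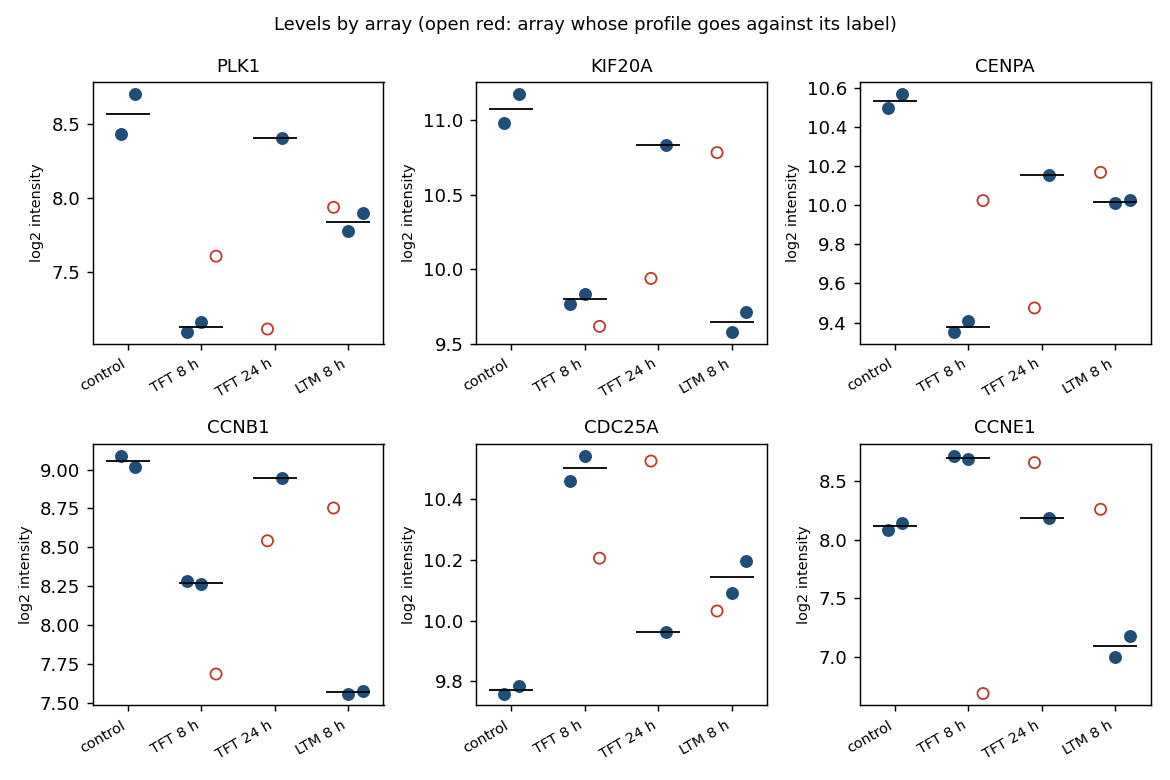
Log2 intensity of 6 cell cycle genes on each control, TFT 8 h, TFT 24 h and LTM 8 h array; filled blue points are arrays in the fit of 9, open red points the 3 arrays whose profiles went against their labels, and lines the mean of the filled points; the vertical axes do not start at 0. PLK1, KIF20A, CENPA and CCNB1 are below control on TFT 8 h replicates 1 and 2 and nearer to control on the single filled TFT 24 h array, and CCNE1 on TFT 8 h replicate 3 lies near the LTM 8 h points.

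Replication-dependent histone genes, which are transcribed mainly in S phase, gave 1 rise and 3 falls among 38 measured, with a median of -0.17. Of all genes, 1.86% rose and 1.57% fell. H2AC6, an H2A gene, was at 6.07 and 6.27 on the controls, 5.13 and 4.99 on replicates 1 and 2, and 8.62 on replicate 3. With replicates 1 and 2 it fell by 1.11 (SE 0.164, adjusted p = 0.0122), and the array labelled replicate 3 was far above the controls, so that the value as labelled was 0.08 (adjusted p = 0.984). The median of the list was 0.04 as labelled. H2AC20 fell by 0.70 (SE 0.118, adjusted p = 0.0176), but the array labelled replicate 3, at 8.76, was above the controls at 8.18 and 8.13 (as labelled -0.27, adjusted p = 0.832). H2BC8 was not above background on replicates 1 and 2 and was at least 1.28-fold lower (adjusted p = 0.0417, and 0.650 as labelled), and H3C12 was not above background on the controls and was at least 1.33-fold higher (adjusted p = 0.0366). Such bounds set the brighter group against the lowest signals detected on the arrays of the dimmer group. H2AC25, outside the list, fell by 1.13 (SE 0.186, adjusted p = 0.0167), and was at 8.54 and 8.58 on the controls, 7.46 and 7.38 on replicates 1 and 2, and 8.87 on replicate 3 (as labelled -0.65, adjusted p = 0.693). Histone genes are near-identical in sequence, and a probe can bind more than 1 of them.

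Genes that handle the drug did not pass. TK1 was at 11.08 and 11.05 on the controls, 10.95 and 11.06 on TFT 8 h replicates 1 and 2, and 10.50 on replicate 3. The first 4 overlapped, and the log2 fold change was -0.06 (95% interval -0.391 to 0.265, adjusted p = 0.849). TYMS, the target of the monophosphate, had -0.21 (-0.549 to 0.137, adjusted p = 0.485), and TYMP, which breaks the drug down, -0.28 (-0.534 to -0.017, adjusted p = 0.206). DUT, which removes dUTP and keeps uracil out of DNA, had -0.11 (-0.375 to 0.146, adjusted p = 0.619). RRM2, a subunit of ribonucleotide reductase, had 0.00 (-0.279 to 0.271, adjusted p = 0.989). In the lists, 0 of 8 genes of uptake and activation and 0 of 10 of breakdown and clearance rose or fell. The same held for 0 of 25 genes of thymidylate and deoxynucleotide synthesis. Of all genes 3.43% passed, so 0 calls in lists of this size does not set these genes apart. Under median scaling 2 of the second list and 2 of the third fell, beside 1397 of 12131 genes. TYMSOS, a transcript from the opposite strand of the TYMS locus, did fall, from 8.24 and 8.45 on the controls to 7.05 and 7.16 on replicates 1 and 2, with 6.95 on replicate 3. All 3 treated arrays were below both controls (log2 fold change -1.24, SE 0.128, adjusted p = 0.00231; as labelled adjusted p = 0.371). Whether its probe also takes up signal from TYMS was not tested.

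Calls among repair and checkpoint genes were set beside the 3.43% of all genes that passed. Of 17 measured genes of base excision repair and 4 of mismatch repair, 0 rose or fell. Under median scaling 2 base excision genes fell, beside 1397 of 12131 genes. UNG, the uracil glycosylase, had 0.04 (95% interval -0.241 to 0.318). Of 27 genes of homologous recombination and the Fanconi pathway, PALB2 rose, the partner that brings BRCA2 to breaks. It was at 7.32 and 7.17 on the controls and at 7.97, 8.08 and 7.99 on TFT 8 h replicates 1, 2 and 3, so that all treated arrays were above both controls (0.78, SE 0.131, adjusted p = 0.0176). Of 19 checkpoint genes, CDC25A rose, and CDC25C and H2AX fell. H2AX, the histone variant phosphorylated around breaks, was at 9.76 and 9.61 on the controls, at 9.010 and 9.004 on replicates 1 and 2, and at 8.32 on replicate 3 (-0.67, SE 0.126, adjusted p = 0.0239). CHEK1, the kinase of the replication checkpoint, had -0.13 (SE 0.110, adjusted p = 0.547).

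Of 33 measured p53 target genes, 0 rose and 0 fell at 8 h, beside 3.43% of all genes that passed. A count of 0 in 33 is near that share. The list median was 0.05, against 0.00 over all genes. Under median scaling it was -0.15, against -0.16 over all genes. There 3 of the list fell, beside 1397 of 12131 genes. The smallest adjusted p in the list was 0.0583. CDKN1A, the inhibitor p21 of cyclin-dependent kinases, was not above background on any of the 4 arrays, and its level has only a bound there. GDF15, a secreted stress factor, was at 5.18 and 5.44 on the controls and at 5.31 and 5.47 on TFT 8 h replicates 1 and 2. The groups overlapped (0.08, 95% interval -0.256 to 0.414, adjusted p = 0.809). MDM2, the ubiquitin ligase that p53 both induces and is degraded by, had 0.15 (SE 0.204, adjusted p = 0.715) and was detected on 1 of the 2 controls.

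**Figure D4:**
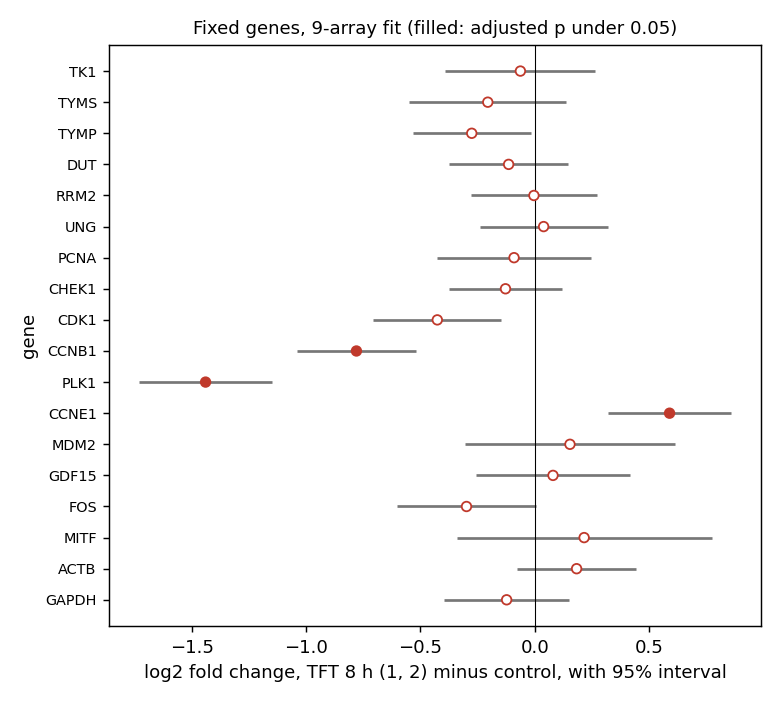
Log2 fold change of TFT 8 h replicates 1 and 2 minus control with its 95% interval (horizontal) for 18 genes of drug handling, cell cycle, p53 response and reference (vertical), in the fit of 9 arrays; filled points passed an adjusted p of 0.05. CCNB1 and PLK1 lie left of 0 and CCNE1 right of 0, and the other 15 points are open.

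Most of the measured metallothioneins, small proteins that bind zinc and copper, rose. Of 6, 4 rose and 0 fell, beside 1.86% of all genes that rose, and the median was 0.69 (0.64 with MT1M at its bound). MT1X was at 10.29 and 10.27 on the controls and at 11.60, 11.45 and 11.62 on TFT 8 h replicates 1, 2 and 3. All 3 treated arrays were above both controls and close together (1.25, SE 0.119, adjusted p = 0.00189; as labelled 1.28, SE 0.223, adjusted p = 0.179). MT1F rose by 0.73 (SE 0.124, adjusted p = 0.0182) and MT1E by 0.65 (SE 0.149, adjusted p = 0.0466). MT1M was not above background on the controls and was at least 1.54-fold higher (adjusted p = 0.013). MT1G had 0.23 (adjusted p = 0.559) and MT2A 0.07 (adjusted p = 0.801). When 1 of the 4 arrays was left out, 1 of the 6 rose. With the replicate block, or with signals floored at 16 and no further background correction, 2 rose. MT1 genes are near-identical, and their probes can bind each other's transcripts. The promoter of MT1X, at chr16:56682220-56682519 (plus strand, RefSeq, GRCh38.p14), is shown because metal response elements are known to control this family. Capitals mark the core letters TGCACNC or TGCGCNC, where N is any base, on either strand.
MT1X: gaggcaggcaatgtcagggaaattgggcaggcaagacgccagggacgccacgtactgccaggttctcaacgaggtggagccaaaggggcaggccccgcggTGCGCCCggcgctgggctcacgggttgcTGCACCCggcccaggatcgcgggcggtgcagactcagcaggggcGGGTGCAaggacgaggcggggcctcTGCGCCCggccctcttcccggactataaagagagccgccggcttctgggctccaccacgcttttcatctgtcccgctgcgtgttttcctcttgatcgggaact
MT1X held 4 such cores and MT2A, which did not pass, held 8. At least 2 were held by 8.59% of all promoters. Among genes with an entry, 12% of those tested and 12.8% of those that rose held at least 2. Of the 6 measured metallothioneins 2 had a promoter entry.

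GLIPR1, a member of the CAP family of secreted and membrane proteins, had the largest rise. It was at 6.62 and 6.40 on the controls, 8.40 and 8.34 on TFT 8 h replicates 1 and 2, and 9.71 on replicate 3. It rose 3.61-fold (log2 fold change 1.85, SE 0.188, adjusted p = 0.00213), and replicate 3 lay above the other treated arrays. ANKRD1, a nuclear and sarcomeric ankyrin-repeat protein and a target of the co-activator YAP, was at 6.63 and 6.68 on the controls, 8.45 and 8.47 on replicates 1 and 2, and 9.36 on replicate 3 (1.81, SE 0.119, adjusted p = 3.21e-04). CPA4, a secreted carboxypeptidase, was at 5.34 and 5.35 on the controls and at 7.09, 7.07 and 6.65 on TFT 8 h replicates 1, 2 and 3. All treated arrays lay above both controls for these 3 genes, and CPA4 rose by 1.73 (SE 0.155, adjusted p = 0.00189). As labelled, GLIPR1 had 2.30 (limma adjusted p = 0.227), ANKRD1 2.11 (0.371) and CPA4 1.59 (0.352).

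PLXNA2, a semaphorin receptor, was at 6.15 and 6.14 on the controls and at 7.79 and 7.90 on replicates 1 and 2, but at 6.41 on replicate 3 (1.70, SE 0.137, adjusted p = 0.00131; as labelled 1.22, adjusted p = 0.476). Its other probe had 0.57 and did not pass. ANGPTL4, a secreted inhibitor of lipoprotein lipase, was at 5.63 and 5.25 on the controls, 6.98 and 6.90 on replicates 1 and 2, and 5.54 on replicate 3. Replicate 3 was thus near the controls for both, and within their range for ANGPTL4 (1.501, SE 0.145, adjusted p = 0.00189; as labelled 1.03, adjusted p = 0.516), whose other probe had 0.02 and did not pass. EPHB1, an ephrin receptor kinase, was at 6.86 and 6.65 on the controls and at 8.08, 8.08 and 7.51 on TFT 8 h replicates 1, 2 and 3, all above the controls (1.33, SE 0.124, adjusted p = 0.00189). The others among the 15 largest rises were KCNH1, a voltage-gated potassium channel, SCRG1, LIMA1, an actin cross-linking protein, MT1X, MGLL, the lipase of monoacylglycerols, ADAMTS6, a secreted metalloprotease, HECW2, a ubiquitin ligase, PDLIM4, an actin-associated PDZ and LIM protein, and PRR5, a subunit of the mTORC2 complex. Their log2 fold changes ran from 1.48 for KCNH1, detected on 1 of the 2 controls, to 1.17 for PRR5, and ADAMTS6 had 1.23, or 2.01 as labelled (adjusted p = 0.525). The other probes of MGLL and PRR5 did not pass.

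Growth factor and AP-1 genes held a few rises each. LIF, a cytokine of the interleukin-6 family, was at 5.51 and 5.43 on the controls, 6.55 and 6.55 on replicates 1 and 2, and 8.995 on replicate 3. Replicate 3 was far above the other treated arrays (1.08, SE 0.110, adjusted p = 0.00213; as labelled 1.90, adjusted p = 0.506). DUSP5, a phosphatase that acts on nuclear ERK, rose from 8.94 and 8.91 to 10.09 and 10.01, with 11.68 on replicate 3 (1.12, SE 0.122, adjusted p = 0.00319). JUN, a subunit of AP-1, was at 8.97 and 9.02 on the controls and at 10.13, 10.02 and 10.44 on TFT 8 h replicates 1, 2 and 3 (1.08, SE 0.160, adjusted p = 0.0122). FOS, its partner, did not pass, with 6.64 and 6.55 on the controls and 6.22 and 6.37 on replicates 1 and 2, and it was at 10.37 on replicate 3. For FOS the array labelled replicate 3 thus lay more than 3 log2 units above the other 4 arrays.

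Of 19 measured genes of MAPK output, 5 rose (DUSP5, LIF, the EGF-family ligand HBEGF, the feedback inhibitor SPRY4 and the receptor EPHA2) and 0 fell, beside 1.86% of all genes that rose, while the median was -0.01 (0.08 with the mean of each gene's probes). Under median scaling 2 of the 19 rose and 5 fell, and the other probe of SPRY4 had 0.04 and did not pass. Of 27 immediate early genes, 4 rose (JUN, MCL1, CCN1 and DUSP1) and KLF6 fell (-0.60, SE 0.137, adjusted p = 0.047; as labelled -0.38, adjusted p = 0.639), with a median of 0.13 (-0.05 under median scaling, where 2 rose and 5 fell). CCN1 rose by 0.58, and as labelled had 0.89 (adjusted p = 0.563). MCL1, an anti-apoptotic BCL2 family member, rose by 0.75 (SE 0.143, adjusted p = 0.026), and its other probe had -0.15 and did not pass. Of 19 YAP targets, ANKRD1, CCN1 and FOXF2 rose, beside 1.86% of all genes, and the list median was 0.16 (0.01 under median scaling, where 1 rose and 1 fell). BMP2, a TGF-beta family ligand, rose by 1.04 (SE 0.128, adjusted p = 0.00606), and BAMBI, a decoy receptor of that family, fell by 0.80 (SE 0.126, adjusted p = 0.0142), among 15 genes of that response.

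Of 21 measured NF-kB targets 3 rose, beside 1.86% of all genes, and all 3 are inflammatory cytokines. Under median scaling 1 rose and 3 fell. CXCL8, the neutrophil chemokine interleukin-8, was at 12.30 and 12.26 on the controls, 13.12 and 13.11 on replicates 1 and 2, and 13.75 on replicate 3 (0.83, SE 0.109, adjusted p = 0.00695). CCL2, a monocyte chemokine, rose by 0.81 (SE 0.181, adjusted p = 0.043) and IL1A, interleukin-1 alpha, by 0.76 (SE 0.144, adjusted p = 0.0242). For both, replicate 3 was higher again, at 11.85 and 11.12 against control means of 8.86 and 8.24 (as labelled 1.54, adjusted p = 0.505, and 1.47, adjusted p = 0.553). Of 30 measured interferon-stimulated genes 0 rose and 2 fell, beside 1.57% of all genes that fell. IFIT1, an antiviral RNA-binding protein, was at 6.67 and 6.82 on the controls and at 5.55, 6.0 and 4.94 on TFT 8 h replicates 1, 2 and 3 (-0.97, SE 0.171, adjusted p = 0.0204), and DHX58, a regulator of RNA sensing, fell by 0.89 (SE 0.139, adjusted p = 0.014), detected on 1 of the 2 TFT 8 h arrays. The 15 measured genes of MHC class I presentation had a median of 0.25 (0.04 under median scaling), and 0 passed.

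Chaperones of the endoplasmic reticulum gave 3 rises and 0 falls among 18 measured genes of the unfolded protein response, beside 1.86% of all genes that rose. HSPA5, the chaperone BiP, was at 9.84 and 9.78 on the controls, 10.54 and 10.50 on replicates 1 and 2, and 8.98 on replicate 3. CALR, the lectin chaperone calreticulin, was at 10.17 and 10.04 on the controls, 10.79 and 10.73 on replicates 1 and 2, and 9.98 on replicate 3. The array labelled replicate 3 lay below both controls for each, whereas replicates 1 and 2 lay above (HSPA5 0.71, SE 0.109, adjusted p = 0.0137; CALR 0.65, SE 0.117, adjusted p = 0.0218). As labelled HSPA5 had 0.20 (adjusted p = 0.903) and CALR 0.39 (adjusted p = 0.656). HYOU1 rose by 0.54 (SE 0.122, adjusted p = 0.0448; as labelled 0.33, adjusted p = 0.660). The list median was 0.16, and -0.02 under median scaling. HSPA1B, a cytosolic HSP70 with a near-identical neighbour, was the 1 rise among 21 heat shock genes, with 10.71 and 10.83 on the controls, 11.58 and 11.37 on replicates 1 and 2, and 9.22 on replicate 3 (0.70, SE 0.126, adjusted p = 0.0216; as labelled -0.05, adjusted p = 0.985).

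Matrix genes gave 3 rises among 30 measured, beside 1.86% of all genes that rose. They were TIMP3, an inhibitor of metalloproteases (0.91, SE 0.117, adjusted p = 0.00671), THBS1, thrombospondin (0.76, SE 0.156, adjusted p = 0.0316), and TNC, tenascin C (0.61, SE 0.115, adjusted p = 0.0238), whose other probe had 0.21 and did not pass. The array labelled replicate 3 was below both controls for TIMP3 (10.01 against 10.68 and 10.61) and TNC (9.95 against 10.13 and 9.96), so that as labelled they had 0.40 (adjusted p = 0.796) and 0.38 (adjusted p = 0.610). The list median was 0.14, but -0.07 as labelled and -0.01 under median scaling, where 2 rose. Of 21 genes of the MITF-low melanoma state, JUN, THBS1, TNC and CCN1 rose, beside 1.86% of all genes. All 4 are already counted in the immediate early or matrix lists. The median was 0.26, and 0.22 under median scaling, where 2 rose. MITF, the lineage transcription factor, varied widely, with 5.37 and 5.80 on the controls and 5.42 and 6.18 on replicates 1 and 2 (0.22, SE 0.249, adjusted p = 0.668). ERBB3, a neuregulin receptor and the 1 fall among 17 lineage genes, fell by 0.58 (SE 0.131, adjusted p = 0.0448; as labelled -1.21, adjusted p = 0.580), with 7.69 on replicate 3 against 10.29 and 10.04 on the controls, but its other 2 probes had -0.05 and 0.20 and did not pass.

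Outside mitosis, the largest fall was that of MXD3, a MAX-binding repressor of the MYC network. It was at 7.46 and 7.74 on the controls and at 5.64, 5.72 and 5.58 on TFT 8 h replicates 1, 2 and 3. All treated arrays were alike and below both controls, and MXD3 was 3.79-fold lower (log2 fold change -1.92, SE 0.128, adjusted p = 3.21e-04; as labelled -1.95, SE 0.324, adjusted p = 0.179). LTM 8 h replicates 2 and 3 were at a like level, 5.81 and 5.80. SAP30, a subunit of the Sin3 repressor complex, was at 8.32 and 8.25 on the controls and at 7.18, 7.13 and 7.11 on TFT 8 h replicates 1, 2 and 3 (-1.13, SE 0.148, adjusted p = 0.00695). As labelled it had adjusted p = 0.141, equal to the smallest of that fit. TEF, a PAR-bZIP transcription factor under circadian control, was not above background on replicates 1 and 2 and was at least 2.17-fold lower (adjusted p = 0.00282).

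TNFRSF19, a member of the TNF receptor family, was at 8.83 and 8.61 on the controls and at 7.73, 7.54 and 7.05 on TFT 8 h replicates 1, 2 and 3 (-1.09, SE 0.157, adjusted p = 0.0114). SLCO4A1-AS1, an antisense transcript, was at 8.42 and 8.41 on the controls and at 7.23 and 7.27 on replicates 1 and 2, but at 8.39 on replicate 3, which was near the controls (-1.16, SE 0.135, adjusted p = 0.00492). GGACT, a gamma-glutamylamine cyclotransferase, fell by 1.14, and ARHGAP11B, a partial copy of ARHGAP11A that shares sequence with it, fell by 1.07. As labelled, SLCO4A1-AS1 had -0.78 (limma adjusted p = 0.564), GGACT -0.77 (0.494) and ARHGAP11B -0.76 (0.484). The stress-response genes SLC7A11, the cystine transporter, and CEBPB fell by 0.72 (SE 0.132, adjusted p = 0.0226) and 0.62 (SE 0.117, adjusted p = 0.0239), among 29 measured genes of the ATF4 response, where 0 rose. Of all genes, 1.57% fell. For CEBPB the array labelled replicate 3, at 11.99, was above the controls at 11.58 and 11.69, and as labelled it had -0.29 (adjusted p = 0.767).

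Growth and metabolism lists held at most 2 calls each. Of all genes 1.86% rose and 1.57% fell, and 1 or 2 calls in lists of this size do not set a list apart. NOP16 and UBTF, factors of ribosome production, rose among 35, HK2, hexokinase 2, rose among 30 genes of glycolysis and hypoxia, ELL2 rose among 13 of transcription elongation, SRXN1 rose and SLC7A11 fell among 16 NRF2 targets, and SREBF1 fell among 24 of cholesterol synthesis. Both HK2 and UBTF have other probes that did not pass, and UBTF had 0.61, or 0.33 as labelled (adjusted p = 0.668). In the fit of 9 arrays no member passed among 64 cytosolic ribosomal proteins, 42 genes of oxidative phosphorylation, 18 aminoacyl-tRNA synthetases, 14 snoRNA hosts, 20 Wnt pathway genes or 12 of cGAS-STING and RNA sensing. Other processing gave calls in these lists. With normexp on the signals alone, 3 ribosomal protein genes and 4 of oxidative phosphorylation rose, and 4 Wnt genes rose and 2 fell. Under median scaling, 5 snoRNA hosts, 4 synthetases, 2 Wnt genes, 2 of oxidative phosphorylation, 1 ribosomal protein gene and 1 sensing gene fell. These processings called more of all 12131 genes too. With normexp 516 rose and 417 fell, and under median scaling 159 rose and 1397 fell. No member passed either among the 9 housekeeping references (2 fell under median scaling), where ACTB had 0.18 (SE 0.116) and GAPDH -0.12 (SE 0.122).

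**Figure D5:**
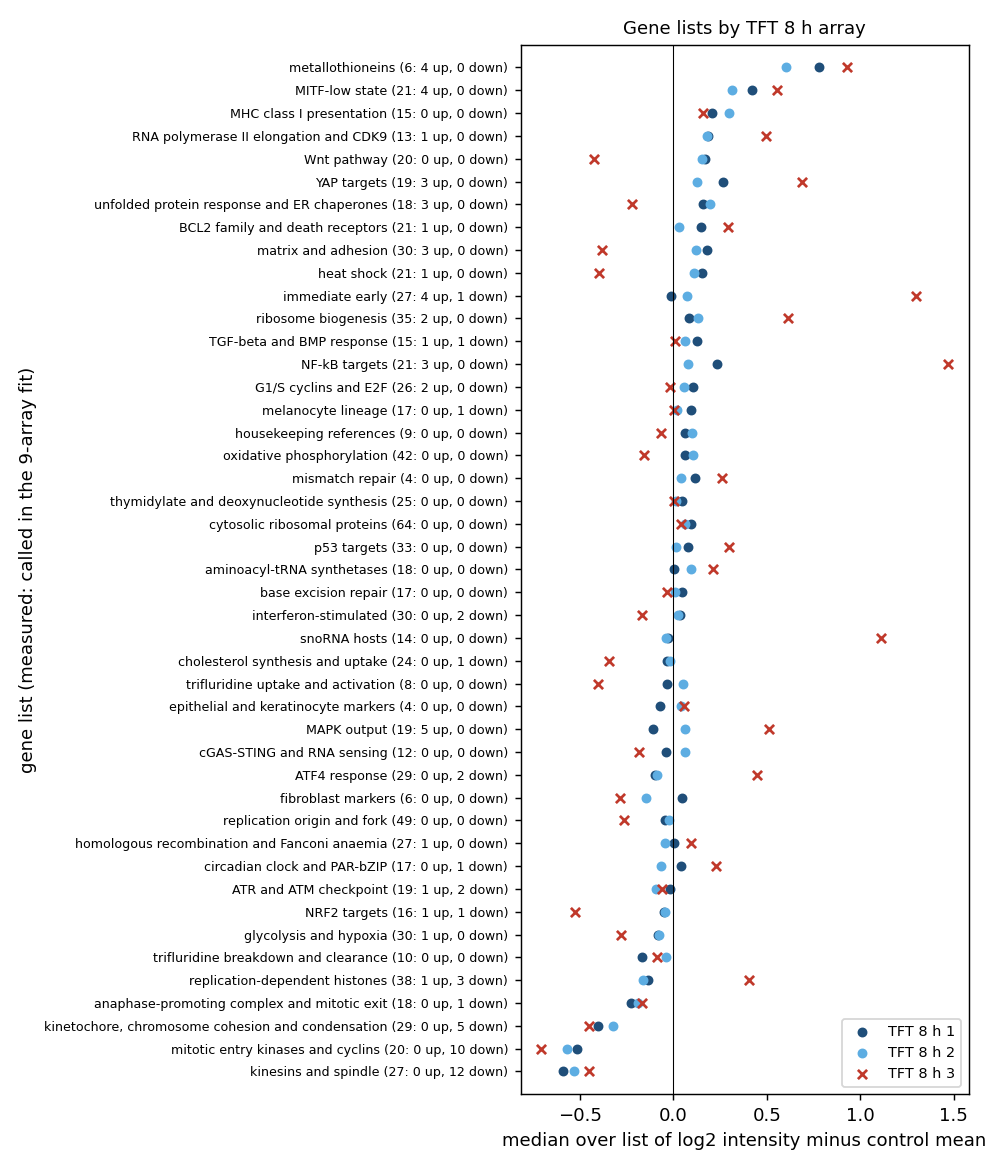
Median over each gene list of log2 intensity minus the control mean (horizontal) for lists with at least 4 measured members (vertical, with the number measured and the number that rose and fell), separately for TFT 8 h replicates 1, 2 (blue points) and 3 (red crosses). The 3 arrays lie together for the mitotic lists and the metallothioneins, while the array labelled replicate 3 stands to the right for NF-kB targets, immediate early genes and snoRNA hosts and to the left for the Wnt, matrix and heat shock lists.

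At the same time of 8 h, TFT replicates 1 and 2 differed from LTM replicates 2 and 3 in 4256 genes (35.1%), 2085 higher (17.2%) and 2171 lower (17.9%) in TFT. As labelled this comparison gave 0 genes in limma, with 347 at an unadjusted p under 0.05. PLK1 was at 7.77 and 7.90 on the LTM arrays and lower in TFT by 0.71 on the log2 scale (adjusted p = 0.00236), and CENPA was lower in TFT by 0.64 (adjusted p = 0.00666). CCNB1, by contrast, was at 7.56 and 7.58 on the LTM arrays and higher in TFT by 0.70 (adjusted p = 0.00133). Of the 94 mitotic genes, 11 were lower and 15 higher in TFT than in LTM, and 68 did not pass. KIF20A (0.16, adjusted p = 0.37), DLGAP5 (-0.003, 0.99) and AURKA (0.07, 0.678) did not pass. Nor did MXD3 (-0.12, 0.489), TYMSOS (0.03, 0.868) and SAP30 (0.10, 0.632). HMMR (-0.59, 0.00942) and SLCO4A1-AS1 (-1.13, 2.33e-04) were lower in TFT. Except for SLCO4A1-AS1, both LTM arrays lay below both controls for each of these genes, as for PLK1, CENPA and CCNB1. CCNE1 was higher in TFT by 1.61 (adjusted p = 1.67e-05), HSPA5 by 1.52 (adjusted p = 1.44e-05) and HSPA1B by 2.26 (adjusted p = 4.17e-06). LIF was lower in TFT by 2.54 (adjusted p = 2.26e-06), and of the replication-dependent histones 19 of 38 were lower in TFT and 0 higher. MT1X did not pass (-0.15, SE 0.119, adjusted p = 0.349), and 0 of the 6 metallothioneins did.

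Between 8 h and 24 h of TFT, the fit of 9 arrays had 1 array at 24 h, assumed to vary like the other groups, and it used the same TFT 8 h arrays as the comparison with control. It called 190 genes (1.57%), 140 higher (1.15%) and 50 lower (0.412%) at 24 h, and as labelled 0, with 281 at an unadjusted p under 0.05. PLK1 was at 8.40 on TFT 24 h replicate 2, higher by 1.28 (adjusted p = 0.0108), and KIF20A was at 10.83, higher by 1.03 (adjusted p = 0.0175). In all, 6 of the 94 mitotic genes were higher at 24 h and 0 lower. Of the 33 p53 targets, 9 were higher at 24 h and 0 lower, among them GDF15, at 8.34 on that array against 5.31 and 5.47 at 8 h (2.95, adjusted p = 3.37e-04). The array labelled TFT 24 h replicate 1, which was left out, had PLK1 at 7.11 and GDF15 at 5.56, near the TFT 8 h arrays.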

How the data were processed

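RNA of each sample was labelled with biotin and hybridised to 1 array of an Illumina BeadChip, per the labels' protocols. The deposited scanner table held linear intensities. The submitters' processing notes name GenomeStudio, whose version is not given in the sources used here. Between 27.3% and 29.3% of an array's deposited intensities lay below 0, so a background had been subtracted from them. Per the file headers, each intensity came with its own detection p-value. A second deposited table held the authors' processed intensities of 38223 probes, with a normalization not given in the sources used here, and was used for 1 alternative.

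Background correction used limma 3.58.1 in R 4.3.3 (normexp with the background taken from the detection p-values, offset 16), followed by log2 and quantile normalization. Probes detected at p under 0.05 on at least 2 of the 12 arrays were kept, 24325 of 47230. The probe annotation gave a single symbol for 27004 probes and more than 1 for 4, and 26970 matched the RefSeq gene table. For each of the 12131 genes the brightest probe on average was tested. Unnamed probes were tested separately, and 107 of 8371 were called. Mean signal on the 5 arrays was 331.87 to 415.44, and the number of arrays limits the precision.

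One limma fit of group means (lmFit, eBayes, two-sided) took all 12 arrays (7 residual degrees of freedom) and another took 9 (4 residual degrees of freedom). P-values were adjusted by Benjamini-Hochberg over all genes. A self-check on simulated data with known changes was also run, and its outcome is not given here. Alternatives were other background corrections, scalings, filters, probe summaries, fits, a replicate block and leaving out arrays. Same-numbered control and TFT 8 h arrays did not deviate together (r = 0.00935 over genes), and the labels name no shared batch, so the numbers were not used as pairs.

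Named genes were, among called genes whose arrays did not overlap, the 15 that rose most and the 15 that fell most, up to 4 members of largest change from each list, and 21 fixed genes, of which 19 were measured. The comparison and the 47 gene lists were chosen with earlier results of these data known. Other named list members are those counted in the text. Promoters were read from a RefSeq table (GRCh38.p14).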

Additional observations from a re-analysis of the deposited data

Results flagged for a closer look

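Of the named genes, 23 differed between TFT 24 h and TFT 8 h in the test of that difference (limma, fit of 9 arrays, adjusted p under 0.05). The 24 h side is 1 array, assumed to vary like the other groups, and 0 genes passed with all 12 arrays as labelled. The values below are log2 differences, 24 h minus 8 h.

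Among the genes that fell at 8 h, the mitotic genes PLK1 (1.28), KIF20A (1.03), HMMR (0.88), CDC25C (0.79) and AURKA (0.88) were higher at 24 h. So were MXD3 (0.96), TYMSOS (1.17), TEF (0.84), SLCO4A1-AS1 (1.02), ARHGAP11B (0.84) and IFIT1 (1.44). Among the genes that rose at 8 h, EPHB1 (-1.83), KCNH1 (-1.83) and PLXNA2 (-1.33) were lower at 24 h, as were ANKRD1 (-0.94), SCRG1 (-0.86), MT1X (-0.74), TIMP3 (-1.06) and the chaperones HSPA5 (-0.90) and HSPA1B (-1.03). Both sets use the TFT 8 h arrays that entered the comparison with control.

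Of the genes that did not pass at 8 h, GDF15 (2.95), FOS (1.25) and CDKN1A (1.16) were higher at 24 h. Background limits 3 of these values. TEF and CDKN1A were not above background on TFT 8 h replicates 1 and 2, and were at least 1.65-fold and 1.82-fold higher at 24 h. KCNH1, at 4.56 on the 24 h array, lay under its lowest detected signal of 4.92, and was at least 2.77-fold lower at 24 h.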

How the results depend on the processing

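As labelled, 0 genes were called in every alternative fit except with signals floored at 16 and no further background correction (8 genes, 2 higher and 6 lower) and in the fit of 9 arrays (416). With replicates 1 and 2, the main count of 416 became 933 with normexp on the signals alone (limma's saddle-point fit, offset 50), 1556 under median scaling, 250 with only the 4 arrays in the fit, 829 with trended and robust eBayes, and 0 on 11 arrays. It was 19 to 48 when 1 of the 4 arrays was left out. Other filters, the mean of a gene's probes, the floor of 16 and the authors' processed table gave 308 to 477. All of the 416 genes that an alternative could test kept their sign in it. Leaving out 1 of the 4 arrays could not turn a sign, since the arrays did not overlap for any of the 416. The fit of only the 4 arrays, that of 11 arrays and trended and robust eBayes keep the same log2 fold change. A kept sign in those fits is therefore no check. The causes of the differences between these counts were not tested. For TFT 8 h minus LTM 8 h the main count of 4256 became 0 on 12 arrays, and for TFT 24 h minus TFT 8 h 190 became 0 on 12 arrays and 364 with trended and robust eBayes.

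With the replicate number as a replicate block, counts were 102 for TFT 8 h minus control (0 as labelled), 2386 against LTM 8 h and 44 for 24 h minus 8 h. The arrays share only a number, so these are not paired results. The mitotic genes that fell, 28 of 94, were 13 with the block, 45 with normexp on the signals alone, 43 with trended and robust eBayes and 0 on 11 arrays.

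Of 81 named genes that were called, 46 to 81 kept their call under the alternatives of processing and the block, 16 to 26 when 1 array was left out, 0 on 11 arrays, and 0 turned sign. In these alternatives of the fit of 9 arrays, signs turned only for genes that did not pass, while between the fits of 9 and 12 arrays CCNE1, H2AC6 and HSPA1B turned. For called genes, leaving out 1 array could not turn a sign, as said above. UNG had -0.14 under median scaling and -0.20 with the mean of its probes. GDF15 had -0.029 under median scaling and -0.21 in the authors' table. CDKN1A, for which background is set against background, had 0.17 in the authors' table. With 1 array left out in turn, the log2 fold change ranged from -0.051 to 0.21 for GDF15, from -0.14 to 0.45 for MDM2, from -0.17 to 0.60 for MITF, from -0.084 to 0.024 for CDKN1A and from -0.098 to 0.090 for RRM2.

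With 2 arrays a side, the smallest change called was 0.47 on the log2 scale. Probes near background have compressed values.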
